A study of Homo sapiens with 10 samples.

Results

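The SLC25A genes encode the carriers that move small molecules across the inner mitochondrial membrane, and their newly made and total RNA was followed here in 22RV1 after 4 h of kinase inhibition. 22RV1 is an established prostate cancer cell line that grows without androgen. Members were the protein-coding genes whose symbol starts with SLC25A, found by matching the transcripts of the deposited tables to GENCODE v44. This gave 48 genes of the 31015 with counted 3′ ends. Of these, 40 had enough reads to be tested for total RNA and 32 also had enough labelled reads to be tested for newly made RNA.

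The study asked how transcription responds when the splicing kinase SRPK1 or the transcriptional kinase CDK12 is inhibited. Its 10 libraries used here form 5 groups of 2: control cells without a compound, SRPIN340 (20 μM, an SRPK1 inhibitor), Endovion (50 μM, used as an inhibitor of the same kinase), THZ531 (an inhibitor of CDK12) and THZ531 with Endovion. The dose of THZ531 is 100 nM in the methods and 150 nM in the text of the data series. All cells received 4-thiouridine during the last 10 min, and the alkylated base causes a T>C mismatch. T>C reads are therefore taken here as RNA made during labelling. No unlabelled library is among the 10 used and no background was subtracted, so T>C mismatches from other sources may be counted too. How far such mismatches add to the T>C reads of a gene was not tested. Each library holds 1 fragment from the 3′ end of each captured mRNA, so levels can be set side by side between genes without dividing by length. Levels of total RNA are given as CPM (all reads of a gene, scaled to the library's size and TMM factor), and those of newly made RNA as T>C CPM (the same for T>C reads alone). All groups come from 1 cell line with 2 replicates, and no source used here says whether replicates were separate cultures, so p-values measure the spread between these libraries only, which may be technical. In such bulk samples fewer cells with a transcript and less of it per cell cannot be told apart. Prostate markers fitted the label, with KRT18 at 348 to 472 and FOXA1 at 88.0 to 245 CPM over the libraries, whereas KLK3 was low at 2.63 to 8.09 and KRT5, CD3E and COL1A2 had 0 reads. Of the markers of other cell types, SYP stood at 20.8 to 25.6, ALB at 8.2 to 13.4 and COL1A1 at 1.57 to 3.51 CPM in all groups, and PTPRC, GFAP and CHGA at no more than 0.230 in any library.

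Carriers of this family share 1 fold, built from a repeated pair of membrane helices, and most swap a substrate of the matrix for one of the cytosol. They feed phosphate and ADP to ATP synthase, export ATP and citrate, run the malate-aspartate shuttle and supply the matrix with nucleotides, cofactors, iron and glutathione. All are encoded in the nucleus and imported after translation.

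Promoters are shown for 3 carriers on which the results turn: SLC25A5, whose newly made RNA rose with every treatment, SLC25A36, which rose with THZ531 and Endovion together, and SLC25A28, which fell with THZ531. Each window covers 250 bases before to 50 bases after the transcription start in RefSeq (GRCh38.p14), at chrX:119468194-119468493 on the plus strand, chr3:140941586-140941885 on the plus strand and chr10:99620390-99620689 on the minus strand. Capitals mark matches on either strand to 4 motifs. These were GCGTG (the core bound by the aryl hydrocarbon receptor), the E-box CACGTG (bound by MYC and its relatives), the CCAAT box (CCAAT) and the TATA box (TATAAA). The first 2 end in the same 4 letters, but no stretch reads as both.
SLC25A5: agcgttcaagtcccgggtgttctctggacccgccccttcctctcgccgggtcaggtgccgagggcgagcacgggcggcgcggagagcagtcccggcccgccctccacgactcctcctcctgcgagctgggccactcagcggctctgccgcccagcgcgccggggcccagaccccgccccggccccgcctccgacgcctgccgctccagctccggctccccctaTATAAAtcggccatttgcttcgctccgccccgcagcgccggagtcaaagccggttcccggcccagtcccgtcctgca
SLC25A36: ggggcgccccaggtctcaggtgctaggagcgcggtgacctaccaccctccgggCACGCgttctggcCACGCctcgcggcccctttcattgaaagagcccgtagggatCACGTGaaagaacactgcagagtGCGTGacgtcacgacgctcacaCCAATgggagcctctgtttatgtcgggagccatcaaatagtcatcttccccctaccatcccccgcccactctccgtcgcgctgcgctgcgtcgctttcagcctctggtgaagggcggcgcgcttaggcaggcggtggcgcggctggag
SLC25A28: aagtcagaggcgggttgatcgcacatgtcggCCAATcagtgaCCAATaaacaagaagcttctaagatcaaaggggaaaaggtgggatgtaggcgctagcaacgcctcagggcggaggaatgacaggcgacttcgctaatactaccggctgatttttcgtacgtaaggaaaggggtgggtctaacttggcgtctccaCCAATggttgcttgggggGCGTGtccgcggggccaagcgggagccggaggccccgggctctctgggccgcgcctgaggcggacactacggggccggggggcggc

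The SLC25A5 window held 1 TATA box and no match to the other motifs, that of SLC25A36 held 3 receptor cores, 1 E-box and 1 CCAAT box, and that of SLC25A28 held 1 receptor core and 3 CCAAT boxes. Over 35116 RefSeq promoters of this length, 36.5% held the receptor core, 7.26% the E-box, 34.6% the CCAAT box and 11.5% the TATA box. RefSeq windows were matched for 40 of the 48 carriers, 51 windows in all, of which 40 held the receptor core, 9 the E-box, 23 the CCAAT box and 4 the TATA box. A match of letters is a description of the window and shows no binding.

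In control cells 2 carriers made up 49.3% of all SLC25A reads. SLC25A3, the phosphate carrier, stood at 983 ± 59.8 CPM (SD, n = 2) and SLC25A5, the ADP/ATP carrier of growing cells, at 269 ± 110. SLC25A39 (197 ± 25.4), SLC25A37 (166 ± 7.42) and SLC25A11 (120 ± 6.71) followed. The median over the 40 carriers tested for total RNA was 22.1 CPM, against 13.1 for all 14689 genes tested. At the other end, SLC25A47, a carrier known from liver, had 0 reads in every library, which allows up to 0.0998 to 0.155 CPM depending on the library (counting error only). The other 7 carriers too low to test (SLC25A2, SLC25A18, SLC25A31, SLC25A34, SLC25A41, SLC25A48 and SLC25A52) had at most 35 reads over the 10 libraries together.

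Label per transcript differed widely among the carriers. Per 1000 covered T positions, the pooled control libraries had 10.1 conversions for SLC25A30, 7.63 for SLC25A28, 6.15 for SLC25A22, 4.54 for SLC25A20 and 4.40 for SLC25A40, the highest of the carriers with at least 20 T>C reads in each control library. The lowest were SLC25A3 (1.02), SLC25A13 (1.04), SLC25A14 (1.22), SLC25A44 (1.74) and SLC25A5 (1.82). SLC25A30 stood above 95.9% of the 9946 genes tested for newly made RNA, and SLC25A3 above 7.36%. The median over the 32 carriers was 2.14, beside 2.34 over all tested genes. Among the genes tested, carriers with more RNA tended to have a lower rate (Spearman rho -0.50 over 32 carriers, -0.25 over the 9946 genes, from the same pooled libraries). Only genes with enough T>C reads entered, so a gene with little RNA entered only if its rate was high. This selection by itself favours a negative rho, and how far it shaped these values was not tested.

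**Figure D1:**
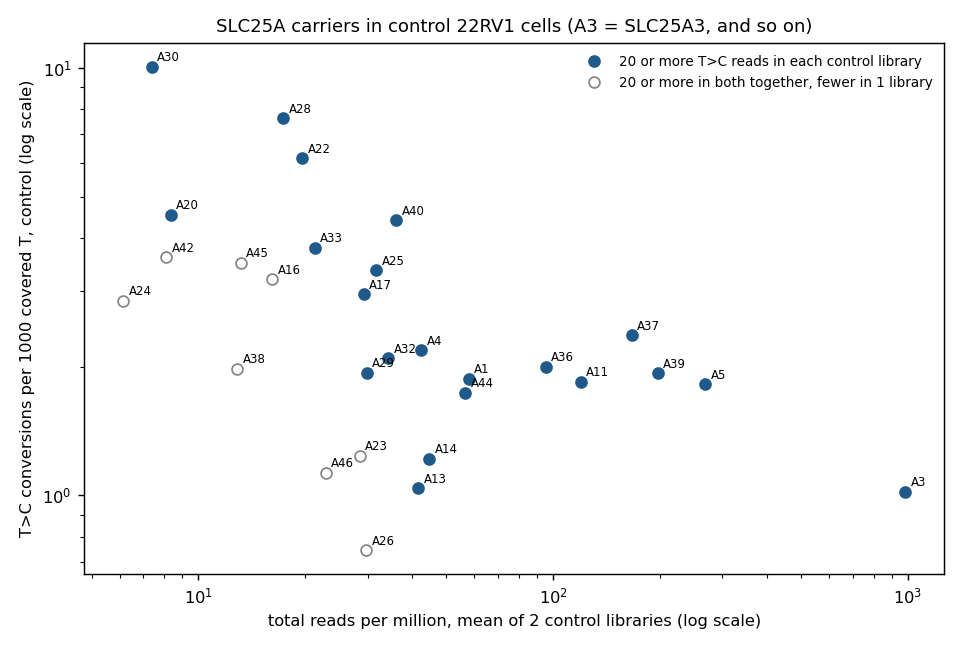
T>C conversions per 1000 covered T positions (log scale) against total CPM (log scale, mean of 2 libraries) for 29 SLC25A carriers with at least 20 T>C reads over both control libraries. SLC25A30 has the highest rate at 10.1, and SLC25A3 the most RNA at 983 CPM with a rate of 1.02.

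The libraries held 19315398 to 30047663 reads on genes, of which 1011591 to 1576102 were T>C reads, and the carriers took 0.258% to 0.316% of the reads. Control replicate 2 stood apart most: it was the lowest of the 10 libraries for 24.0% and the highest for 18.3% of all tested genes, and the lowest for 13 and the highest for 8 of the 40 carriers. THZ531 replicate 2 came next, as the lowest for 16.7% and the highest for 17.4% of all tested genes. It was the lowest for 6 and the highest for 4 carriers. All 4 comparisons with control share the same 2 control libraries, so each value against control rests on them, and results are given with and without control replicate 2 where they depend on it. Below, a carrier is said to have risen or fallen where edgeR's quasi-likelihood test gave a Benjamini-Hochberg adjusted p under 0.05 over all tested genes, and errors of log2 fold changes are standard errors.

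SLC25A5 rose in newly made RNA with all 4 treatments, the only carrier to do so. It exchanges ADP and ATP across the inner membrane and lies at chrX:119468422-119471396 on the plus strand (hg38). It was counted over 261 bases near the 3′ end, at chrX:119471059-119471319. In newly made RNA it had 309 and 213 T>C CPM in control, 414 and 571 with SRPIN340, 563 and 583 with Endovion, 516 and 555 with THZ531, and 657 and 689 with THZ531 and Endovion together. All 8 treated libraries lay above both control libraries, and the combination lay above the rest. The counts behind these values were 266 to 913 T>C reads per library.

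Nascent SLC25A5 rose by 0.91 ± 0.17 on the log2 scale with SRPIN340 (adjusted p = 7.83e-04), 1.13 ± 0.17 with Endovion (5.90e-06), 1.03 ± 0.17 with THZ531 (1.86e-05) and 1.36 ± 0.17 with the combination (4.18e-08), or 1.88-, 2.19-, 2.04- and 2.57-fold. The last 3 stayed under the threshold in every alternative that was run. With SRPIN340 the call was lost without control replicate 2 (log2 0.68, adjusted p = 0.142) and without SRPIN340 replicate 2 (0.66, adjusted p = 0.194). The combination against THZ531 alone gave 0.33 ± 0.16 (adjusted p = 0.624), and the test of whether both compounds together departed from the sum of their effects gave -0.80 ± 0.23 (adjusted p = 0.142), neither past the threshold.

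Total SLC25A5 RNA stood at 346 and 191 CPM in control, 486 and 665 with SRPIN340, 710 and 681 with Endovion, 567 and 780 with THZ531, and 787 and 754 with the combination. Again no treated library overlapped the controls. The change was 1.37 ± 0.30 with Endovion (adjusted p = 0.0355), 1.33 ± 0.30 with THZ531 (0.0178) and 1.52 ± 0.31 with the combination (0.0115), while SRPIN340 gave 1.10 ± 0.30 at an adjusted p of 0.125. The Endovion call was lost without control replicate 2 (log2 0.96, adjusted p = 0.0512), without either Endovion replicate (0.172 and 0.161) and without either library of the combination (0.0815 and 0.0782). The THZ531 call was lost without THZ531 replicate 2 (log2 1.02, adjusted p = 0.0974) and without Endovion replicate 2 (0.0510), and that of the combination without either of its own libraries (0.0736 and 0.0575). The Endovion call was lost as well with the replicate block (0.0676) and without the filter on low counts (0.0587), and the THZ531 call in the fit of only the 2 groups compared (0.0819). SLC25A5 held 13.5% and 7.59% of all carrier reads in control and 17.7% to 24.7% in the treated libraries. Without SLC25A5, the carriers took 0.228% and 0.239% of all reads in control and 0.223% to 0.241% after treatment, so that the treated range contained both controls. SLC25A5 has processed copies elsewhere in the genome. The tables list 0 multimapping reads, and reads shared with such copies cannot be told apart here. With the plain sum of all listed intervals, in which overlapping ones are counted again, the nascent SRPIN340 call was lost (log2 0.92, adjusted p = 0.171). SLC25A5 has only 1 interval, so its own reads were not counted again and only the counts of other genes changed. The same holds for SLC25A28, SLC25A33, SLC25A37 and SLC25A40, which have 1 interval each and lost calls under the plain sum below.

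**Figure D2:**
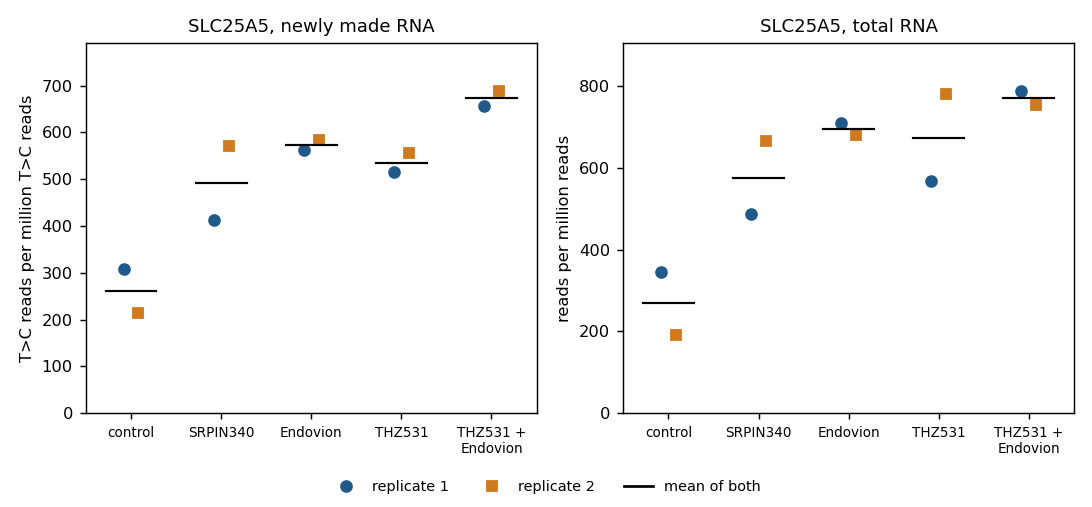
SLC25A5 in each library: T>C CPM (left) and total CPM (right), with replicate 1 as circles, replicate 2 as squares and a line at the mean of both. Every treated library lies above both control libraries in both panels.

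The other ADP/ATP carriers differed in measured level. SLC25A4, the form of heart and muscle, had 46.7 and 38.2 CPM in control and rose in total RNA by 0.68 ± 0.15 with THZ531 (adjusted p = 3.47e-03) and 0.72 ± 0.15 with the combination (2.58e-03), with no overlap between groups. Without control replicate 2 (log2 0.50, adjusted p = 0.0561) or THZ531 replicate 2 (0.43, adjusted p = 0.0898) the THZ531 call was lost. SLC25A6 had 1.61 to 3.09 CPM in all libraries and passed no test. It lies in the part of the X chromosome that has an identical copy on Y, where a further 617 reads were listed beside the 503 counted here, so its level is understated. With 0 multimapping reads listed, reads that match both copies may be missing as well. By how much its level is understated was not tested. SLC25A31, a carrier of the testis, had 9 reads in all.

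For newly made RNA, 1 to 4 carriers were called in each comparison with control. With SRPIN340 1 of 32 carriers was called (background 1.04% of 9946 genes) and with Endovion also 1 (2.66%), SLC25A5 in both. With THZ531 4 of 32 were called, or 12.5%, against 7.46% of all genes: SLC25A5 rose and 3 fell, among them SLC25A28 and SLC25A37. With THZ531 and Endovion 3 of 32 were called, or 9.38%, against 8.1% of all genes: SLC25A5 and SLC25A36 rose and SLC25A37 fell. No carrier was called between the combination and THZ531 alone (0.322% of all genes) or in the interaction of both compounds (0.302%). At an unadjusted p under 0.05 these 2 tests had 2 carriers higher and 0 lower, and 2 higher and 2 lower, and DESeq2 called 0 in both. The median change over the 32 carriers lay between -0.22 and 0.07 in the comparisons with control, and that over all genes between -0.02 and -0.01. Treated and control libraries did not overlap in newly made RNA for 19 of the 32 carriers with SRPIN340 (59.4%, against 41.4% of all tested genes). The carriers without overlap were 19 with Endovion (59.4% against 43.7%), 17 with THZ531 (53.1% against 48.6%) and 18 with the combination (56.2% against 48.8%). All of these comparisons share the same control libraries.

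Total RNA gave more calls. With SRPIN340 1 of 40 carriers was called (1.96% of all 14689 genes), with Endovion 10 (25% against 11.4%), with THZ531 14 (35% against 30.7%) and with the combination 17 (42.5% against 29%). Rises and falls were mixed, with 7 up and 3 down for Endovion, 8 up and 6 down for THZ531, and 10 up and 7 down for the combination. The median change over the 40 carriers lay between 0.02 and 0.12, and that over all genes between -0.01 and 0.03. Treated and control libraries did not overlap for 27 of the 40 carriers with Endovion (67.5%, against 57.5% of all tested genes), 27 with THZ531 (67.5% against 65.3%) and 26 with the combination (65% against 64.6%), shares near those of all genes. Without control replicate 2 the Endovion count fell to 0, that of THZ531 to 7 and that of the combination to 12, and without THZ531 replicate 2 the THZ531 count was 6. The Endovion count was also 3 and 1 without Endovion replicates 1 and 2, and 6 without replicate 2 of the combination, whose own count was 11 and 8 without its replicates 1 and 2.

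**Figure D3:**
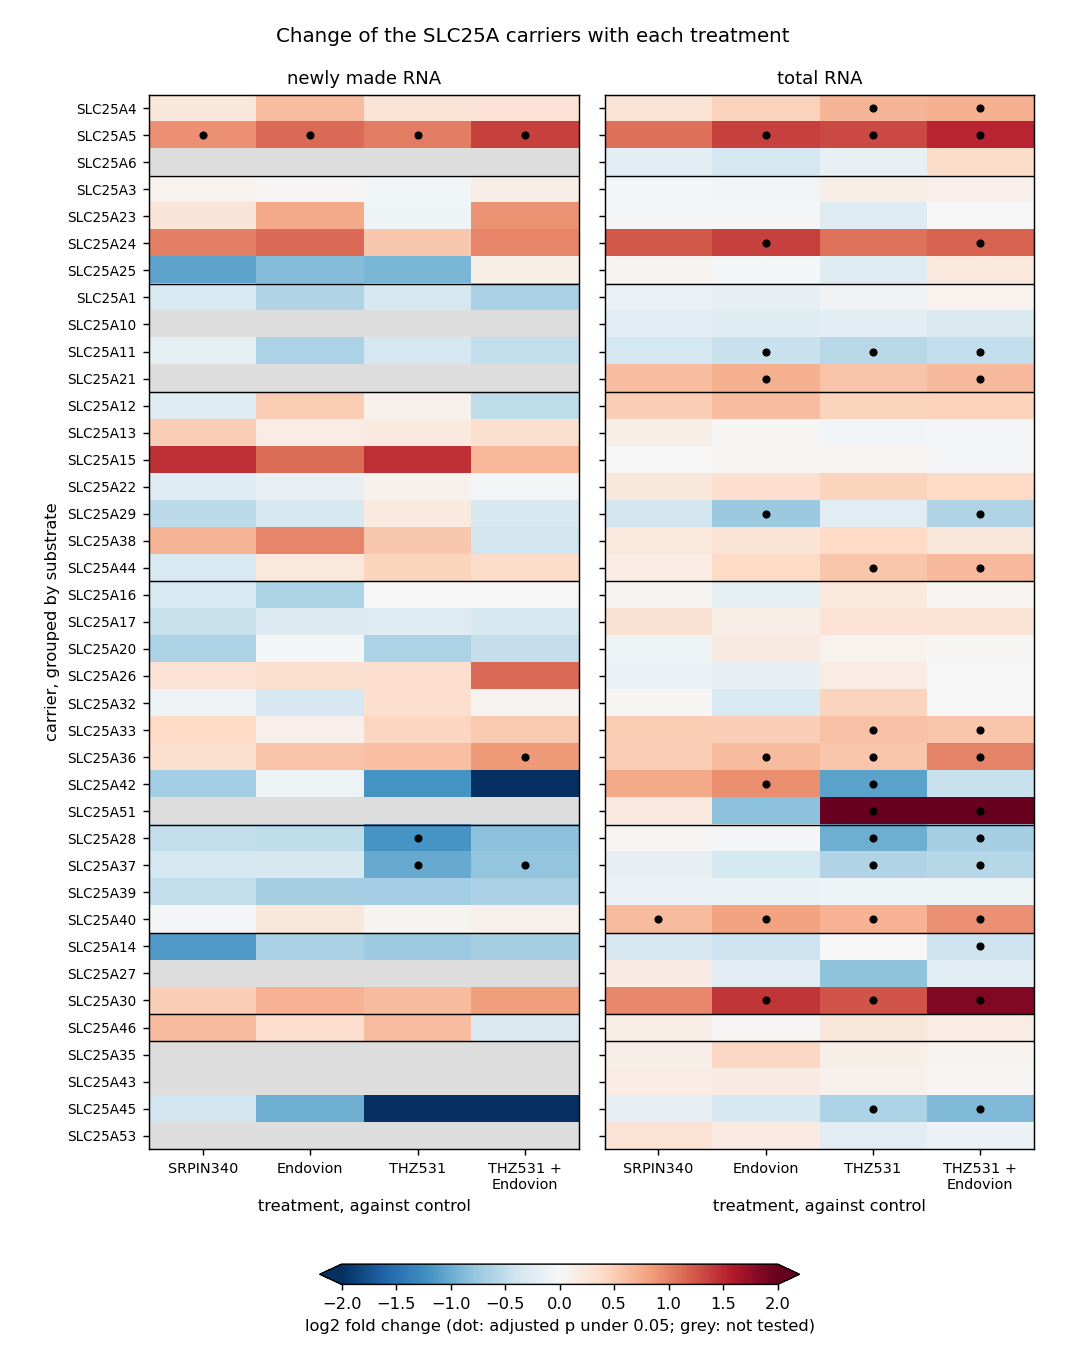
Log2 fold change against control of newly made (left) and total RNA (right) for 39 of the carriers tested, grouped by substrate with lines between groups. A dot marks an adjusted p under 0.05 and grey marks carriers not tested in newly made RNA; colours end at log2 2 in either direction. SLC25A5 is marked in 7 of 8 columns, and SLC25A28 and SLC25A37 carry dots only with THZ531, alone or combined.

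The mitoferrins SLC25A37 and SLC25A28, which import iron for heme and iron-sulfur clusters, fell together with THZ531. SLC25A37 (chr8:23528956-23575463, plus strand) had 163 and 158 T>C CPM in control, 122 and 130 with SRPIN340, 129 and 129 with Endovion, 95.0 and 63.0 with THZ531, and 98.3 and 88.5 with the combination. Every treated library lay below both controls, and those with THZ531 lay lowest. Nascent SLC25A37 fell by 1.0 ± 0.23 on the log2 scale with THZ531 (adjusted p = 2.07e-03) and by 0.78 ± 0.23 with the combination (0.0196). Without THZ531 replicate 2 the first was -0.76 (adjusted p = 0.132), and the second was lost without either control library (0.0747 and 0.0718) or either of its own (0.0902 and 0.144). With the plain sum of overlapping intervals both were lost (0.0608 and 0.121). Its total RNA stood at 161 and 172 CPM in control, 154 and 143 with SRPIN340, 126 and 135 with Endovion, 123 and 95.8 with THZ531, and 113 and 111 with the combination. In total RNA it fell by 0.61 ± 0.12 with THZ531 (adjusted p = 1.86e-03) and by 0.57 ± 0.12 with the combination (2.98e-03), and both calls held in every alternative run.

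SLC25A28 (chr10:99610519-99622793, minus strand) had 15.8 and 19 total CPM in control, 18.5 and 16.9 with SRPIN340, 18.7 and 14.9 with Endovion, 8.63 and 9.12 with THZ531, and 11.1 and 10.8 with the combination. The 4 libraries with THZ531 lay below the other 6. Total SLC25A28 fell by 0.97 ± 0.18 with THZ531 (adjusted p = 1.20e-03), which held in every alternative, and by 0.67 ± 0.18 with the combination (0.0125), which was lost without control replicate 2 (log2 -0.57, adjusted p = 0.0839) and without replicate 2 of the combination (-0.64, adjusted p = 0.0657). Its newly made RNA had 56.6 and 40.1 T>C CPM in control and 18.9 and 24.4 with THZ531, a fall of 1.18 ± 0.39 at an adjusted p of 0.0479. This last call was at the threshold and was lost when any 1 of the 10 libraries was left out (log2 -0.89 to -1.40, adjusted p from 0.0503 to 0.281), with DESeq2 (0.0884), with scaling by all reads (0.0561), without the filter on low counts (0.0581), with the plain sum (0.171) and in the fit of 2 groups (0.0709).

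SLC25A40, a glutathione carrier, rose in total RNA with all 4 treatments, by 0.63 ± 0.15 with SRPIN340 (adjusted p = 0.0482), 0.81 ± 0.16 with Endovion (5.75e-03), 0.70 ± 0.16 with THZ531 (3.51e-03) and 0.92 ± 0.16 with the combination (6.02e-04). Its levels were 42.4 and 29.9 CPM in control and 52.7 to 72.3 in the treated libraries. Without control replicate 2 the first 3 were 0.36, 0.54 and 0.43 and no longer called (adjusted p = 0.519, 0.0954 and 0.0652), and without THZ531 replicate 2 the third was 0.55 (0.0505). The SRPIN340 call was also lost without either SRPIN340 library (0.0737 and 0.399), either Endovion library (0.0800 and 0.0806) or either library of the combination (0.0795 and 0.0620), while that of the combination held throughout. It was lost as well with RLE size factors (0.0571), the plain sum of intervals (0.0952), the fit of only the 2 groups compared (0.161), the replicate block (0.0787) and the T-content trend removed (0.11). In newly made RNA SLC25A40 was not called with any treatment, and treated and control libraries overlapped with all 4 treatments. SLC25A39, the other glutathione carrier, was more abundant at 176 to 215 CPM and passed no test. Its newly made RNA had 145 and 170 T>C CPM in control and 85.4 to 113 in the treated libraries, all below both controls. The nascent changes were -0.49 ± 0.22 with SRPIN340, -0.66 ± 0.23 with Endovion, -0.68 ± 0.23 with THZ531 and -0.65 ± 0.23 with the combination (adjusted p = 0.417, 0.118, 0.0529 and 0.0671).

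SLC25A42, which carries coenzyme A, moved in opposite directions with Endovion and THZ531. It had 10.5 and 5.76 total CPM in control, 13.8 and 13.8 with SRPIN340, 15.2 and 16 with Endovion, 4.02 and 3.75 with THZ531, and 5.48 and 6.54 with the combination. Libraries with SRPIN340 or Endovion alone lay above both controls, those with THZ531 alone below both, and the combination overlapped the controls. Total SLC25A42 rose by 0.93 ± 0.24 with Endovion (adjusted p = 0.0226) and fell by 1.07 ± 0.26 with THZ531 (5.81e-03). Each call hung on a control library: without control replicate 2 the rise was 0.53 (adjusted p = 0.281), and without control replicate 1 the fall was 0.56 on the log2 scale (-0.56, adjusted p = 0.107). The rise was also lost without either Endovion library (0.101 and 0.118).

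A direct comparison of THZ531 with Endovion, which uses no control library in the contrast, was added after these values had been seen. It called 6 of 40 carriers, or 15%, against 18.6% of all genes. SLC25A42 was lower with THZ531 (-2.0 ± 0.26 on the log2 scale, adjusted p = 5.59e-05), the largest fall of the 6, and SLC25A28 gave -0.92 ± 0.18 (2.08e-03). SLC25A14, an uncoupling protein-like carrier (0.41 ± 0.13, adjusted p = 0.0412), SLC25A29, a carrier of basic amino acids (0.51 ± 0.15, 0.0266), SLC25A32, a carrier of folate and FAD whose locus overlaps another annotated gene (0.74 ± 0.18, 7.49e-03), and SLC25A51 were higher with THZ531 than with Endovion. The calls of SLC25A42, SLC25A28 and SLC25A51 held in every alternative. That of SLC25A14 was lost in the fit of 2 groups (adjusted p = 0.0709) and without either SRPIN340 library (0.0675 and 0.0671). It was also lost without Endovion replicate 1 (log2 0.29) or either THZ531 library (log2 0.41 and 0.44). The SLC25A29 call was lost without any 1 of the Endovion or THZ531 libraries (log2 0.44 to 0.58). That of SLC25A32 was lost without Endovion replicate 1 (log2 0.59) or THZ531 replicate 2 (log2 0.60).

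**Figure D4:**
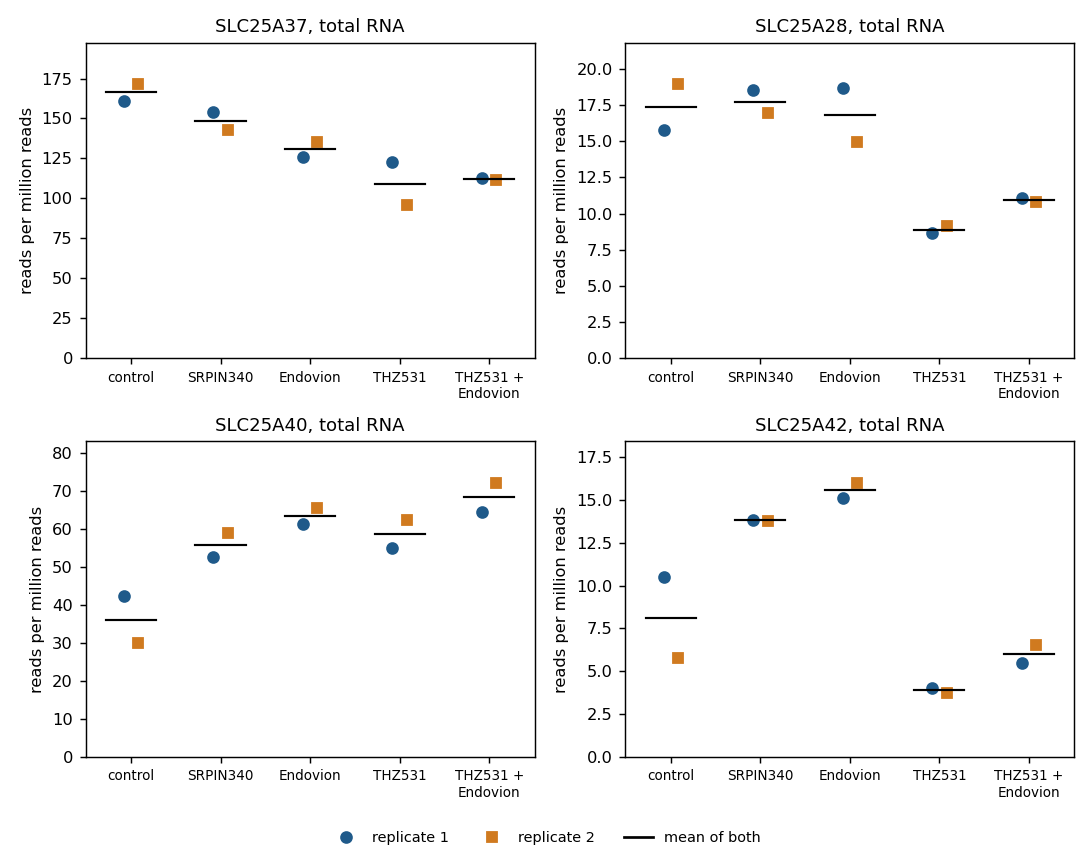
Total CPM in each library for SLC25A37, SLC25A28, SLC25A40 and SLC25A42, with replicate 1 as circles, replicate 2 as squares and a line at the mean of both; each axis starts at 0. SLC25A28 is below the other 6 libraries in the 4 libraries with THZ531, SLC25A40 is above both controls in all treated libraries, and SLC25A42 is above both controls with SRPIN340 or Endovion and below both with THZ531 alone.

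Among the other carriers of cofactors and nucleotides, the pyrimidine nucleotide carriers SLC25A36 and SLC25A33 rose. SLC25A36 had 101 and 89.3 total CPM in control, 143 and 124 with SRPIN340, 137 and 160 with Endovion, 139 and 141 with THZ531, and 212 and 166 with the combination. All treated libraries lay above both controls. Total SLC25A36 rose by 0.64 ± 0.13 with Endovion (adjusted p = 8.25e-03), 0.56 ± 0.13 with THZ531 (5.68e-03) and 0.99 ± 0.13 with the combination (1.19e-04), the last held in every alternative. Without control replicate 2 the Endovion and THZ531 values were 0.51 and 0.43 (adjusted p = 0.123 and 0.0703), and without replicate 2 of either treatment 0.53 and 0.49 (0.0826 and 0.0518). Nascent SLC25A36 rose with the combination by 0.86 ± 0.24 (adjusted p = 0.0142), from 77.9 and 90.7 to 188 and 115 T>C CPM, and the call was lost without the higher of these (log2 0.45, adjusted p = 0.477) and without control replicate 1 (0.76, adjusted p = 0.0995), as well as with the plain sum (0.197). SLC25A33 rose in total RNA by 0.58 ± 0.17 with THZ531 (adjusted p = 0.0192) and 0.55 ± 0.17 with the combination (0.0271), and both calls were lost without control replicate 2 (log2 0.32 and 0.28, adjusted p = 0.257 and 0.337). The first was also lost without THZ531 replicate 2 (0.157), and the second without either library of the combination (0.15 and 0.0695). The fit of 2 groups ended both (0.0661 and 0.0578), and the plain sum the second (0.0555).

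SLC25A51, the NAD carrier, had few reads. It was counted on 1 interval of 53 bases (chr9:37887604-37887656) with 221 reads over the 10 libraries, and its near-identical copy SLC25A52 means that reads may be shared. The interval belongs to a transcript other than the annotated canonical one. It lies inside the gene (chr9:37879400-37904353, minus strand) and not at its annotated 3′ end. The values below describe this inner end only, and may not follow the main mRNA. It had 0.250 and 0.547 CPM in control, 0.486 and 0.413 with SRPIN340, 0.153 and 0.297 with Endovion, 1.95 and 2.47 with THZ531, and 1.49 and 1.67 with the combination. The 4 libraries with THZ531 lay above the other 6, with a rise of 2.47 ± 0.57 for THZ531 (adjusted p = 4.34e-03) that held in every alternative and of 2.0 ± 0.58 for the combination (0.0167), lost without control replicate 1 (log2 1.52, adjusted p = 0.0962) or either library of the combination (0.0582 and 0.0654). Only 3 T>C reads were listed for it, so its newly made RNA could not be followed.

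Of the carriers of central metabolism, SLC25A11 fell and SLC25A21 rose, while SLC25A3 and SLC25A1 passed no test. SLC25A3, the most abundant, had total levels of 871 to 1097 CPM and log2 changes from -0.06 to 0.12 with standard errors of 0.11, none past the threshold, and nascent changes from -0.06 to 0.14 ± 0.15. SLC25A1, the citrate carrier, changed by -0.16 to 0.07 ± 0.17 in total RNA, also without a call. Its newly made RNA had 25.7 and 25.7 T>C CPM in control and 13.8 to 25.4 in the treated libraries, all below control, with log2 changes from -0.65 to -0.31 and adjusted p from 0.466 to 0.869. SLC25A11, the oxoglutarate carrier of the malate-aspartate shuttle, fell in total RNA by 0.44 ± 0.14 with Endovion (adjusted p = 0.0489), 0.56 ± 0.14 with THZ531 (6.32e-03) and 0.49 ± 0.14 with the combination (0.0149). Its partners in that shuttle, the aspartate/glutamate carriers SLC25A12 and SLC25A13, passed no test. SLC25A21, an oxodicarboxylate carrier, rose with Endovion (0.72 ± 0.21, adjusted p = 0.0400) and with the combination (0.65 ± 0.21, 0.0317). Without control replicate 2 all 4 Endovion and combination calls of SLC25A11 and SLC25A21 were lost (adjusted p = 0.0572 to 0.323), and without THZ531 replicate 2 the THZ531 call of SLC25A11 (0.0646). The Endovion calls were also lost without other single libraries, among them each SRPIN340 and Endovion library (0.0594 to 0.234), and the combination calls without replicate 2 of the combination (0.14 and 0.118) or, for SLC25A21, replicate 1 (0.114). Both calls of SLC25A21 were lost without the filter on low counts, with the plain sum and in the fit of 2 groups (0.0532 to 0.0923), and the Endovion call of SLC25A11 with the plain sum (0.0869) and with the single best covered interval (0.0503).

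Of the ATP-Mg/phosphate carriers, SLC25A24 rose from 8.59 and 3.70 CPM in control to 15.7 and 16.3 with Endovion (1.37 ± 0.38, adjusted p = 0.0452) and to 15.4 and 12.5 with the combination (1.17 ± 0.38, 0.0424). Both calls were lost without control replicate 2, without either Endovion library and without either library of the combination (adjusted p = 0.0724 to 0.228), and with the replicate block (0.0823 and 0.0748). SLC25A23 had the largest rise in newly made RNA with the combination among carriers of at least 20 T>C reads in each treated library besides SLC25A5, at 0.89 ± 0.57 (adjusted p = 0.383). SLC25A25 had nascent changes of -1.05 ± 0.50 with SRPIN340 and -0.87 ± 0.51 with Endovion (adjusted p = 0.445 and 0.459). None of these 3 nascent values passed the threshold.

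Among amino acid carriers, SLC25A44, which carries branched-chain amino acids, rose in total RNA with THZ531 (0.56 ± 0.14, adjusted p = 8.22e-03) and the combination (0.65 ± 0.14, 3.56e-03). It had 57.8 and 55.1 CPM in control and 87.9, 78.6, 103 and 74.7 in these treated libraries. The first call was lost without control replicate 2 (0.0656) or THZ531 replicate 1 (0.0721), the second without replicate 1 of the combination (0.130). SLC25A29 fell with Endovion by 0.74 ± 0.15 (adjusted p = 7.04e-03) and with the combination by 0.60 ± 0.15 (7.50e-03), and both were lost without control replicate 2 or without replicate 2 of the treatment. The call with the combination was also lost with the T-content trend removed (-0.29, adjusted p = 0.131). SLC25A22, a glutamate carrier with a high rate of label, passed no test, nor did SLC25A13, SLC25A15 and SLC25A38.

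Of the uncoupling protein-like carriers, SLC25A30 rose most. Its total RNA was 9.41 and 5.38 CPM in control, 12.6 and 16.3 with SRPIN340, 21.1 and 18.9 with Endovion, 13.1 and 22.6 with THZ531, and 23.9 and 29.8 with the combination. No treated library overlapped the controls, and the rise was 1.43 ± 0.30 with Endovion (adjusted p = 0.0122), 1.26 ± 0.30 with THZ531 (8.17e-03) and 1.85 ± 0.30 with the combination (1.03e-03). The Endovion call was lost without control replicate 2 (log2 1.04, adjusted p = 0.0995) or either Endovion library (0.0900 and 0.0623), the THZ531 call without control replicate 2 (0.88, 0.0571) or THZ531 replicate 2 (0.77, 0.0769), and that of the combination under no alternative. In newly made RNA SLC25A30 was not called with any treatment. It lay above both controls with Endovion, THZ531 and the combination, and overlapped them with SRPIN340. SLC25A14 fell with the combination by 0.41 ± 0.13 (adjusted p = 0.0307), a call lost without control replicate 1, either SRPIN340 library or replicate 2 of the combination, and had the largest nascent fall with SRPIN340 of the carriers with at least 20 T>C reads in each control library (-1.14 ± 0.58, adjusted p = 0.495). SLC25A46, of the outer membrane, was not called, at 0.64 ± 0.52 in newly made RNA with SRPIN340 (adjusted p = 0.720). Of the carriers without a settled substrate, SLC25A45 fell in total RNA with THZ531 (-0.63 ± 0.20, adjusted p = 0.0242), lost without either control library, without THZ531 replicate 2, in the fit of 2 groups (0.0567) and with the T-content trend removed (0.0873), and with the combination (-0.88 ± 0.20, 4.41e-03), held in every alternative.

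The labelled share, T>C reads of all reads of a gene, was called for no carrier in any treatment, by edgeR or by DESeq2. All 9946 genes had 0.181% calls with SRPIN340, 0.442% with Endovion, 0.342% with THZ531 and 1.02% with the combination. At an unadjusted p under 0.05, 1 carrier was higher and 3 lower with SRPIN340, 0 and 3 with Endovion, 1 and 3 with THZ531, and 2 and 3 with the combination. For SLC25A5 the share was 4.94% and 5.85% in control and 3.75% to 5.16% in treated libraries, and for SLC25A40 13.7% and 14.5% in control and 7.10% to 10.1% after treatment. The latter change was -0.83 ± 0.26 with the combination relative to the average gene (adjusted p = 0.115). The median over the carriers lay between -0.18 and -0.14, that over all genes between -0.02 and -0.01.

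Changes were related to the base composition of the counted 3′ ends. Over the 40 carriers, the total log2 change and the percentage of T in the counted interval had a Spearman rho of 0.57 with SRPIN340, 0.47 with Endovion, 0.53 with THZ531 and 0.40 with the combination, against 0.30 to 0.36 over all genes, values that share the same control libraries. For nascent changes of the 32 carriers it was 0.56, 0.47, 0.57 and 0.45, against 0.17 to 0.22 over all genes. In total RNA the same held between the controls: replicate 1 against replicate 2 gave 0.49 over the carriers and 0.24 over all genes, while THZ531 against Endovion gave -0.01. Between replicates of the treated groups the carriers' rho ran from -0.38 (THZ531) to -0.07 (the combination). Carriers that rose with Endovion had a median T content of 35.6%, and those not called 28.6%. When a trend with T content was removed from each library, a step chosen after seeing the data, newly made RNA had 1, 1, 2 and 2 carriers called with SRPIN340, Endovion, THZ531 and the combination, and total RNA 0, 9, 13 and 15. SLC25A36 (37.3% T) then lost its total calls with Endovion (log2 0.31, adjusted p = 0.178) and THZ531 (0.21, 0.287) and its nascent call (0.64, 0.0860), and SLC25A28 lost its nascent call (0.0927). Total calls were lost as well for SLC25A40 with SRPIN340 (0.38, 0.11), for SLC25A11 (-0.31, 0.0955) and SLC25A21 (0.53, 0.0990) with Endovion, and for SLC25A45 with THZ531 (-0.44, 0.0873). With the combination those of SLC25A11 (-0.26, 0.111), SLC25A21 (0.45, 0.115), SLC25A24 (0.87, 0.0588) and SLC25A29 (-0.29, 0.131) were lost. In all 14 of 57 called results were lost, and others were gained in their place, such as SLC25A22 with THZ531 and the combination. SLC25A5, SLC25A30 and SLC25A40 have 35.6%, 34.5% and 37.5% T, SLC25A28 25.1% and SLC25A37 29.0%. The part of base composition in the remaining values was not tested.

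**Figure D5:**
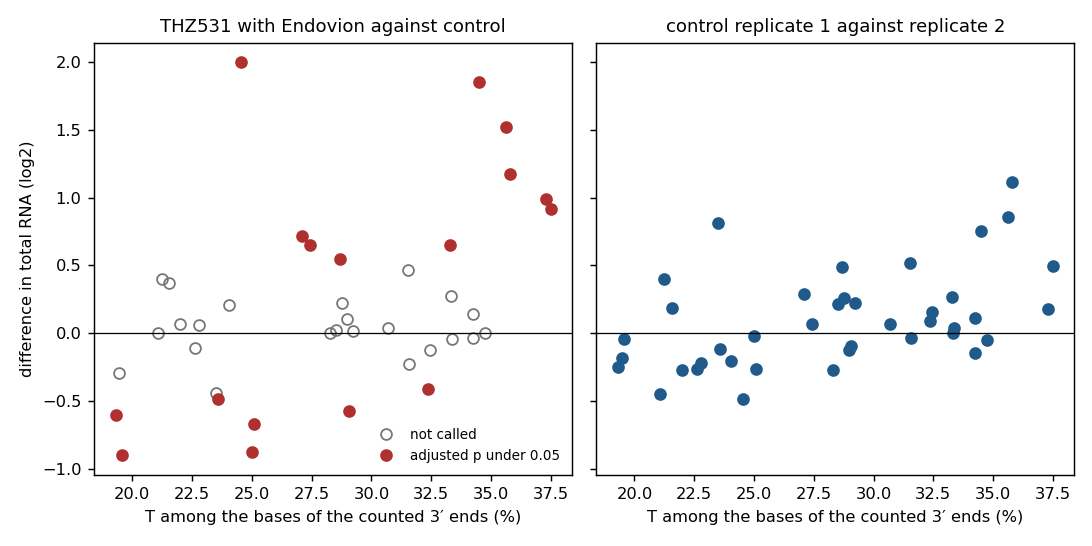
Difference in total RNA (log2) against the percentage of T in the counted 3′ ends of the 40 carriers tested. Left, THZ531 with Endovion against control (filled, adjusted p under 0.05), with a Spearman rho of 0.40; right, control replicate 1 minus replicate 2, with a rho of 0.49.

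Of the genes that work with the carriers, import and other transport were listed apart, and these genes were not refitted with libraries left out. Of 12 tested genes of carrier import, total RNA called 0 up and 4 down with Endovion (TIMM8A, TIMM8B, TIMM10B and TIMM13, small chaperones of the intermembrane space or parts of the TIM22 route), 2 up and 1 down with THZ531, and 1 up and 2 down with the combination. These are 33.3%, 25% and 25% of the list, against 11.4%, 30.7% and 29% of all tested genes. TOMM20, a receptor of the outer membrane, rose with THZ531 (0.48 ± 0.11, adjusted p = 3.48e-03) and the combination (0.49 ± 0.11, 3.28e-03), the latter also in newly made RNA (0.67 ± 0.18, 9.48e-03). That nascent call was 1 of 11 import genes tested, or 9.09%, against 8.1% of all genes. Of 21 other mitochondrial transporters, total RNA called 0 up and 0 down with SRPIN340, 2 up and 0 down with Endovion, 4 up and 1 down with THZ531, and 4 up and 3 down with the combination, or 9.52%, 23.8% and 33.3% for the last 3, against the same shares of all genes. VDAC1, the pore of the outer membrane, and ABCB10, an ABC transporter of the inner membrane needed for heme synthesis, rose with Endovion, THZ531 and the combination, ABCB10 by 1.94 ± 0.38, 1.95 ± 0.38 and 1.96 ± 0.38 (adjusted p = 8.60e-03, 2.39e-03 and 2.57e-03). MCU and MICU2, of the calcium uniporter, rose with THZ531 and the combination, and ABCB8 fell with both. In newly made RNA VDAC1 rose with THZ531 (0.89 ± 0.27, adjusted p = 0.0326) and the combination (0.99 ± 0.27, 0.0140). VDAC3 (-0.50 ± 0.16, 0.0435) and SFXN3 (-0.86 ± 0.27, 0.0362) fell with the combination. These nascent calls were 1 and 3 of 17 transporters tested, or 5.88% and 17.6%, against 7.46% and 8.1% of all genes. Of 4 tested genes of the same family without an SLC25A symbol, UCP3 fell in total RNA with THZ531 and the combination. This was 25% of the list in each, against 30.7% and 29% of all genes. UCP3 had 1.18 and 1.77 CPM in control, 0.369 and 0.214 with THZ531, and 0.0439 and 0.366 with the combination. In those treated libraries a count of 0 allows up to 0.107 to 0.155 CPM. Of 3 tested in newly made RNA and labelled share, MTCH1 rose with the combination in both (0.93 ± 0.25, adjusted p = 0.0106, and 0.92 ± 0.20, 0.0133). This was 33.3% of the list in each, against 8.1% and 1.02% of all genes.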

How the data were processed

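SLAM-seq 3′ end libraries of 22RV1 cells, 2 per group, were analysed from the tables deposited for each library. The authors aligned reads to hg38 and called T>C conversions with SLAM-DUNK. Per the labels, Bowtie2 2.3.4.1, SAMtools 1.6 and DESeq2 1.38.2 were among their tools. The deposited counts are raw: for each 3′ interval they hold its reads, those with T>C, its converted T and its covered T. The deposited conversion rate, a fraction of covered T, was not tested. How molecular identifiers were handled is not given in the sources used here, and the floor for a count of 0 covers counting error only.

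Of 104653 intervals from 75026 transcripts, 96427 lay on the main chromosomes and 92826 matched GENCODE v44. T>C reads that matched no gene made up 3.53%. Of overlapping intervals the best covered was kept, leaving 57382, since a plain sum counts 48.8% of T>C reads again. Counts were fitted over all 10 libraries with edgeR 4.0.16 (R 4.3.3, limma 3.58.1; TMM, filterByExpr, robust quasi-likelihood test) and adjusted by Benjamini-Hochberg over all tested genes. The labelled share was the interaction of read class and treatment, blocked by library. DESeq2 1.42.0 and other choices served as alternatives, and the code was tested on simulated data. T content was taken from the hg38 sequence of the kept intervals. The members, gene lists and tests were chosen with earlier results of these data known. The text names carriers called in any comparison (1 of them is counted but not reported here), the 2 largest nascent rises and falls per treatment with at least 20 T>C reads in each library of the higher group, the 5 with most RNA and with the highest and lowest label rate in control, and the ADP/ATP carriers. A combination of SRPIN340 with THZ531 was not analysed here.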

Additional observations from a re-analysis of the deposited data

How the results depend on the processing

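Of 57 called results of single carriers, 17 were kept under every alternative and 0 reversed. Counts of called carriers moved as follows. For newly made RNA with SRPIN340 (1), the plain sum of overlapping intervals gave 0, and leaving out 1 library 0 to 1. With THZ531 (4), DESeq2, scaling by all reads, no filter on low counts, the plain sum, the fit of only the 2 groups compared and removal of the T-content trend each gave 2, and leaving out 1 library 1 to 3. With the combination (3), the plain sum gave 1 and leaving out 1 library 1 to 3. The interaction (0) gave 0 to 1, the 1 being without control replicate 1. For total RNA with SRPIN340 (1), DESeq2 gave 5 and no filter 6, while RLE size factors, the plain sum, the fit of 2 groups, the replicate block and removal of the T-content trend gave 0, and leaving out 1 library 0 (without control replicate 2) to 7 (without control replicate 1). Leaving out 1 library gave 0 to 11 with Endovion (10), 6 to 16 with THZ531 (14), 8 to 17 with the combination (17) and 3 to 6 for THZ531 against Endovion (6). The labelled share with the combination (0) gave 1 without the filter. The cause of these moves was not tested.

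In newly made RNA, deviations of same-numbered libraries correlated between groups at -0.07 to 0.06. These correlations were not taken in total RNA, so pairing by replicate number was not settled. In total RNA over all genes, replicate 1 minus replicate 2 had a Spearman rho with T content of -0.34 to -0.14 in the treated groups. In control it was 0.24. With the replicate block, 1, 1, 4 and 3 carriers were called in newly made RNA and 0, 7, 15 and 16 in total RNA with SRPIN340, Endovion, THZ531 and the combination. Depth limits newly made RNA: 26 of 48 carriers had under 20 T>C reads in a control library.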
